A study of Mus musculus with 12 samples.

Results

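The 10 genes described here are Foxo3 and 9 genes of the autophagy and mitophagy machinery, namely Ulk1, Becn1, Wipi1, Atg4d, Map1lc3b, Gabarapl1, Gabarapl2, Sqstm1 and Bnip3l. They were taken by gene symbol from a table of 17210 genes, and all 10 had a row and passed the filter on low counts, as did 11177 genes in all. RNA was measured in G1E-ER4 cells, a mouse erythroid progenitor line of C57BL/6J strain that has no GATA1 of its own and carries GATA1 fused to the hormone-binding domain of the estrogen receptor, so that β-estradiol (EST) switches GATA1 on. All 4 groups share that genetic background, and all were exposed to retrovirus for 24 h. Vector cells received empty virus and SREBP2 cells received virus encoding the active fragment of SREBP2 (residues 1 to 468), each followed by vehicle for 6 h, and the Vector+EST and SREBP2+EST cells were the same transductions followed by EST for 6 h. The protocol of the samples states 500 nM EST, and the series design states 200 nM. Each group has 3 libraries, numbered as their count columns are. G1E-ER4 is a single cell line, SREBP2 came from a virus rather than from the cells' own gene, and the labels do not say whether the libraries of a group were separate cultures. The study refers to independent experiments without tying them to these libraries, so the p-values below measure the spread between libraries, which may in part be technical.

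Autophagy encloses cell contents in a double membrane and delivers them to the lysosome. The ULK1 kinase complex starts the process, the Beclin 1 lipid kinase complex marks the membrane with phosphatidylinositol 3-phosphate, WIPI proteins read that lipid, and ATG4 proteases prepare the ubiquitin-like ATG8 proteins (the LC3 and GABARAP families) for attachment to the membrane. Receptors such as p62 (Sqstm1) and NIX (Bnip3l) then tie cargo to the ATG8 proteins. Maturing red cells lose their mitochondria in this way, with NIX as the mitochondrial receptor, and in erythroid cells GATA1 and the transcription factor FOXO3 are known to act on autophagy genes.

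Total estimated counts ran from 18700959 to 19152281 per library. Srebf2 averaged 361 ± 8.32 CPM (counts relative to a common library size after TMM scaling; mean ± SD, n = 3 for every group mean given) in Vector, 816 ± 20.1 in SREBP2, 442 ± 13 with Vector+EST and 808 ± 6.66 with SREBP2+EST; both SREBP2 groups lay above both Vector groups. Hmgcs1, a cholesterol synthesis gene driven by SREBP2, stood at 750 ± 9.6, 1786 ± 50, 425 ± 7.03 and 1726 ± 78.8 CPM in the same order. The Srebf2 counts are on the mouse gene, whereas the study quantified human SREBP2 RNA in transduced G1E-ER4 cells. Whether the Srebf2 counts include reads from the virus was not tested, so they do not measure the degree of overexpression. Gata2, which GATA1 is known to repress, was at 644 ± 17.7 CPM in Vector and at 131 ± 2.8, 156 ± 4.55 and 135 ± 8.82 CPM in SREBP2, Vector+EST and SREBP2+EST. The submitted cell type label is embryonic stem cells, but 3 of 8 stem cell markers (Pou5f1, Zfp42 and Tdgf1) were not analysed here and the other 5 summed to 0.0530 to 0.666 CPM per library, against 6280 to 10726 CPM for 10 erythroid markers. The erythroid sum was 10268 to 10726 CPM in Vector and 6280 to 7432 CPM in the other 3 groups, and of the 10 markers 7 fell and 2 rose with EST in Vector cells, and 6 fell and 2 rose with SREBP2 without EST. Of all genes tested, 35.5% fell and 35.2% rose with EST, and 33.8% fell and 37.7% rose with SREBP2. The part of the erythroid markers in the results below was not tested. Fibroblast and stromal markers differed between libraries. Their sum was 19.2 to 20.1 CPM in Vector, 8.63 to 13.8 CPM in SREBP2, 4.74 to 36.6 CPM in Vector+EST, with library 5 the highest, and 23.7 to 40.5 CPM in SREBP2+EST. With Mbp, the neural markers had their lowest sum in Vector, at 183.0 to 191.1 CPM. That sum was 212.6 to 250.5 CPM in SREBP2, 220.9 to 225.1 CPM in Vector+EST and 200.9 to 230.5 CPM in SREBP2+EST. Mbp made up most of it, with a mean of 166 CPM in Vector. Without Mbp the direction was reversed, with 18.4 to 22.5 CPM in Vector and 10.8 to 17.0 CPM in SREBP2. Vector+EST then had 5.68 to 11.4 CPM and SREBP2+EST 5.44 to 7.04 CPM. Of 8 neural markers tested, 4 fell and 1, Mbp, rose with EST in Vector cells. Myeloid and lymphoid markers summed to 3.39 to 4.74 CPM in all libraries. The part of these markers in the results was not tested. The first principal component held 65.3% of the variance and set the 3 Vector libraries apart from the other 9. On the first and the second component, SREBP2 library 1 was closest to SREBP2+EST libraries 2 and 5, while SREBP2+EST library 1 was closest to SREBP2 libraries 3 and 5, so results that compare these groups are also given without this pair of libraries. Of the markers, Col1a1 was 0.0530 to 0.0542 CPM in SREBP2 and 6.50 to 13.8 CPM in SREBP2+EST, and Gfap was 4.13 to 6.28 and 0.539 to 1.57 CPM, without overlap as labelled, although both also varied within Vector+EST (Col1a1 0, 0 and 13.4 CPM and Gfap 4.54, 4.76 and 1.43 CPM in libraries 1, 3 and 5). Pdgfrb went the other way, with 4.61 CPM in SREBP2 library 1 beside 5.33 and 5.01 CPM in SREBP2+EST libraries 2 and 5, and 9.15 CPM in SREBP2+EST library 1 beside 8.45 and 8.30 CPM in SREBP2 libraries 3 and 5. Whether these libraries were exchanged was not tested, and an exchange would change what every comparison with SREBP2 or SREBP2+EST measures.

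RefSeq promoter windows (GRCm38.p6) matched 8 of the 10 genes, all but Bnip3l and Becn1. The windows of Foxo3, Wipi1 and Atg4d are shown because these genes had the largest differences between groups. Each holds 250 bases before and 50 bases from the base it takes as the transcription start, 5′ to 3′ on the gene's own strand. That base is in capitals, as is the only match among the motifs searched, in Atg4d. In Atg4d the start base lies downstream of the first base of the gene coordinates given below (chr9:21265205). The Foxo3 window is chr10:42276646-42276945 on the minus strand, the Wipi1 window chr11:109611340-109611639 on the minus strand, and the Atg4d window chr9:21265035-21265334 on the plus strand.
Foxo3: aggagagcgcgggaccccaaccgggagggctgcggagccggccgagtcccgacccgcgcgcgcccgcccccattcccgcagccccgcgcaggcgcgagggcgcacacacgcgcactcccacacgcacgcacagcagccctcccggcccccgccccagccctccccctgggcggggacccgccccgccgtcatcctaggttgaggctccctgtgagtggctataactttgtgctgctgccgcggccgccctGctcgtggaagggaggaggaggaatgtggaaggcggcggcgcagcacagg
Wipi1: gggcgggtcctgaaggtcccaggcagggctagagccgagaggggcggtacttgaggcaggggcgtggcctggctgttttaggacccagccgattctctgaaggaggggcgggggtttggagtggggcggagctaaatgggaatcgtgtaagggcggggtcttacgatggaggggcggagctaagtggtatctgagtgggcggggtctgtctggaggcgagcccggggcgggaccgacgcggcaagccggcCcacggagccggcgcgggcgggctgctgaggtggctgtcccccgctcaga
Atg4d: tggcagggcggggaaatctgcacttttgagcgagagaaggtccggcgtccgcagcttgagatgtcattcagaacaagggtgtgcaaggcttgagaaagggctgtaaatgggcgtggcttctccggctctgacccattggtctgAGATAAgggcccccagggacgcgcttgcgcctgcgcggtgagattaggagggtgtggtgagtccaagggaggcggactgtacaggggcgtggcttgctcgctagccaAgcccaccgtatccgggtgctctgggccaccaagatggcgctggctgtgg
The motifs, searched on both strands, were AGATAA and TGATAA (bound by GATA factors), TGTTTAC (FOXO factors), CACGTG (the E-box, also the core of the site used by TFEB) and TCACCCCAC (a sterol regulatory element); none contains another. The Atg4d window held AGATAA on its own strand, beginning 107 bases before the base that the window takes as the start. The match lies nearer to the first base of the gene coordinates. No other match was found in the 8 windows. Over 17144 windows of 13624 genes in the count table, AGATAA was in 7.94%, TGATAA in 5.49%, TGTTTAC in 2.66%, CACGTG in 8.77% and TCACCCCAC in 0.572%. The 8 windows had a median GC content of 65.7% and a median of 22.5 CG dinucleotides, against 58.7% and 17 over all windows. These are letter matches in short windows and say nothing about binding.

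Foxo3 (chr10:42181845-42276695, minus strand, Entrez 56484) encodes a transcription factor of stress resistance and red cell maturation. Its level was 136.3, 131.4 and 129.5 CPM in Vector libraries 1, 4 and 5. It was 270.4, 258.4 and 244.0 CPM in SREBP2 libraries 1, 3 and 5 and 263.5, 242.4 and 255.0 CPM in Vector+EST libraries 1, 3 and 5. In SREBP2+EST libraries 1, 2 and 5 it was 269.9, 265.7 and 276.3 CPM. All 9 libraries with SREBP2, EST or both lay above all 3 Vector libraries, and SREBP2 overlapped both EST groups, whereas Vector+EST lay below SREBP2+EST without overlap. EST raised Foxo3 in Vector cells 1.92-fold (log2 fold change 0.94 ± 0.04 SE, edgeR adjusted p = 1.95e-11). SREBP2 without EST raised it 1.95-fold (0.96 ± 0.04, edgeR adjusted p = 1.27e-11). The effects share the Vector libraries as controls. SREBP2 cells and Vector+EST cells differed by a log2 fold change of 0.02 ± 0.04 (edgeR adjusted p = 0.758), and adding SREBP2 to EST gave 0.09 ± 0.04 (edgeR adjusted p = 0.141). EST in SREBP2 cells gave 0.07 ± 0.04 (edgeR adjusted p = 0.919), or 0.11 with an adjusted p of 0.0970 without SREBP2 library 1 and SREBP2+EST library 1. The EST effect was smaller in SREBP2 than in Vector cells by 0.87 on the log2 scale (interaction -0.87 ± 0.06, edgeR adjusted p = 7.36e-09). In these bulk samples, fewer cells making an RNA and less RNA per cell cannot be told apart.

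**Figure D1:**
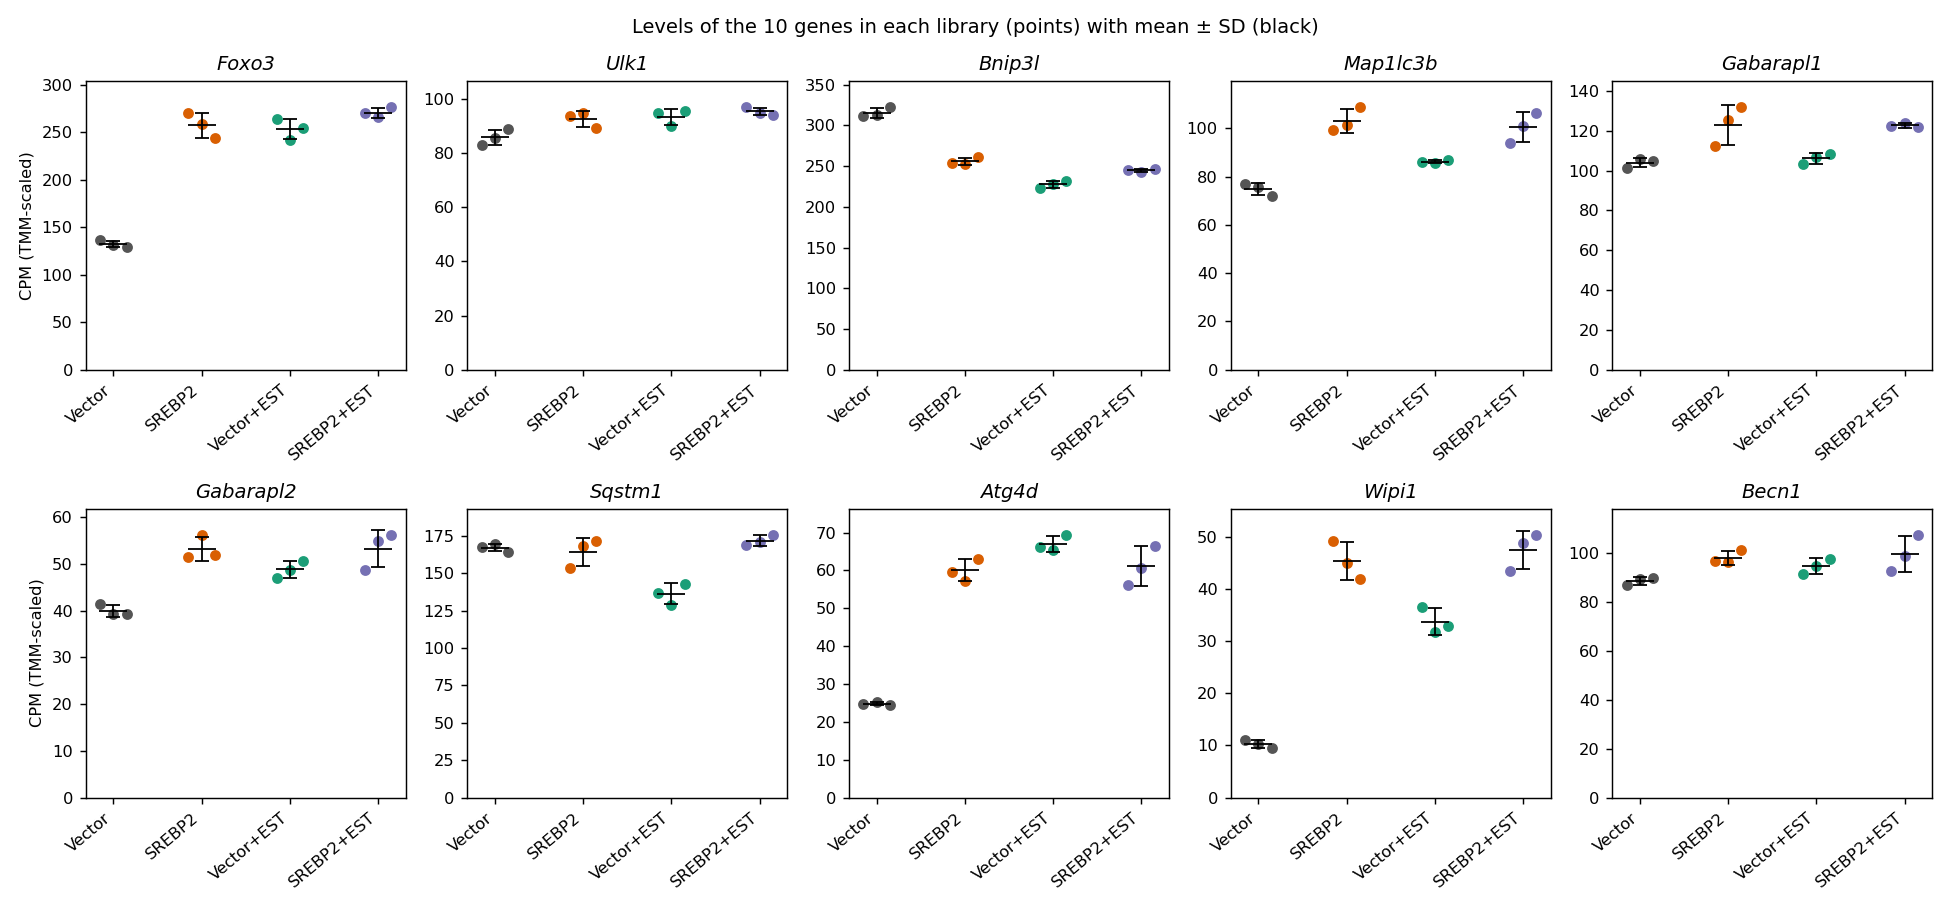
Level of each of the 10 genes in CPM (vertical axis, from 0) in the 3 libraries of each group (horizontal axis), with points for libraries and black marks for the mean ± SD. Foxo3, Atg4d and Wipi1 are low in Vector and high in the other 3 groups, Bnip3l is highest in Vector at 311.2 to 322.3 CPM, and Sqstm1 is lowest in Vector+EST at 129.1 to 142.9 CPM.

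Ulk1 (chr5:110784489-110810120, minus strand), the kinase that starts autophagy, moved little. It was 83.0, 85.4 and 88.7 CPM in the Vector libraries, 93.6, 94.8 and 89.2 CPM in SREBP2, 94.6, 89.7 and 95.3 CPM in Vector+EST, and 96.8, 94.9 and 94.1 CPM in SREBP2+EST. Vector libraries lay below all others, with SREBP2 library 5 at 89.2 and Vector library 5 at 88.7 CPM the closest. The log2 fold change was 0.12 ± 0.04 for EST in Vector cells (edgeR adjusted p = 0.0167) and 0.11 ± 0.04 for SREBP2 without EST (edgeR adjusted p = 0.0266). Either call was lost on leaving out any of the 3 Vector libraries, with adjusted p from 0.0578 to 0.18 for EST and from 0.0823 to 0.240 for SREBP2. The EST call was also lost without Vector+EST library 1 (0.0581) or 5 (0.120), and the SREBP2 call without SREBP2 library 1 (0.0532) or 3 (0.10), Vector+EST library 5 (0.0592), or SREBP2+EST library 2 (0.0663) or 5 (0.0623). The SREBP2 call was also lost with DESeq2 (adjusted p = 0.133), under either other scaling (0.0913 and 0.273), under either other filter (0.0651 and 0.0913), with only the groups compared (0.0801) and without SREBP2 library 1 and SREBP2+EST library 1 (0.209). The EST call was lost with DESeq2 (0.0596), with the stricter filter (0.0758) and without that pair (0.0578).

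Becn1 (chr11:101288258-101302286, minus strand) encodes Beclin 1, the core of the autophagy lipid kinase complex. It was 86.7, 89.2 and 89.8 CPM in Vector, 96.6, 96.1 and 101.3 CPM in SREBP2, 91.4, 94.7 and 97.6 CPM in Vector+EST, and 92.7, 98.7 and 107.3 CPM in SREBP2+EST. The 3 Vector libraries were the lowest of the 12. SREBP2 without EST raised it by 0.15 ± 0.05 on the log2 scale (edgeR adjusted p = 0.0161), and EST in Vector cells gave 0.09 ± 0.05 (edgeR adjusted p = 0.104), which passed in a fit of just the groups compared (0.10, adjusted p = 0.0222). The SREBP2 call was lost without Vector library 1 (adjusted p = 0.0637), 4 (0.106) or 5 (0.0888) or SREBP2 library 5 (0.0637), with DESeq2 (0.0505) and with library totals for scaling (0.123). Its counts carried decimals in all 12 libraries, as where reads are divided among features, and its exons overlap Cntd1 on the other strand.

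Wipi1 (chr11:109573521-109611389, minus strand), which binds the lipid made by the Beclin 1 complex, had the largest fold changes of the 10 genes. It was 11.1, 10.3 and 9.4 CPM in Vector and 36.6, 31.7 and 33.0 CPM in Vector+EST. It reached 49.2, 44.9 and 41.9 CPM in SREBP2 and 43.4, 48.9 and 50.4 CPM in SREBP2+EST. Every Vector+EST library lay above every Vector library and below every library of both SREBP2 groups. The rise was 3.29-fold with EST in Vector cells (log2 fold change 1.72 ± 0.09, edgeR adjusted p = 7.4e-11) and 4.42-fold with SREBP2 without EST (2.14 ± 0.09, edgeR adjusted p = 2.96e-12). SREBP2 alone exceeded EST alone by 1.34-fold (0.43 ± 0.08, edgeR adjusted p = 0.000611), and SREBP2 added to EST raised Wipi1 1.41-fold (0.49 ± 0.08, edgeR adjusted p = 0.000147). EST in SREBP2 cells gave 0.07 ± 0.07 (edgeR adjusted p = 0.927), and 0.19 with an adjusted p of 0.0607 without SREBP2 library 1 and SREBP2+EST library 1.

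Atg4d (chr9:21265205-21274837, plus strand) encodes one of the ATG4 proteases that trim ATG8 proteins and release them from membranes. Its levels were 24.8, 25.2 and 24.4 CPM in Vector and 59.7, 57.3 and 63.0 CPM in SREBP2. They were 66.2, 65.4 and 69.4 CPM in Vector+EST and 56.2, 60.7 and 66.6 CPM in SREBP2+EST. Vector stood far below the rest, and here the highest mean was that of Vector+EST. EST in Vector cells raised Atg4d 2.7-fold (1.43 ± 0.06, edgeR adjusted p = 7.41e-12) and SREBP2 without EST 2.42-fold (1.28 ± 0.06, edgeR adjusted p = 2.87e-11). SREBP2 alone was at -0.16 ± 0.06 against EST alone (edgeR adjusted p = 0.0597), which passed the threshold without SREBP2 library 5 (-0.20, adjusted p = 0.0425), SREBP2+EST library 1 (-0.16, 0.0287) or SREBP2+EST library 5 (-0.15, 0.0392). With EST present, SREBP2 gave -0.13 ± 0.06 (edgeR adjusted p = 0.121) and passed without SREBP2+EST library 5 (-0.20, adjusted p = 0.0280) or with library totals for scaling (-0.18, adjusted p = 0.0332). Counts of Atg4d carried decimals in all 12 libraries, and its exons overlap Kri1 on the other strand.

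The 3 ATG8 genes among the 10 rose with SREBP2 without EST by less than Wipi1 and Atg4d. Map1lc3b (LC3B, chr8:121590438-121598760, plus strand) was 76.7, 75.8 and 71.9 CPM in Vector, 99.2, 101.1 and 108.7 CPM in SREBP2, 86.2, 85.5 and 86.9 CPM in Vector+EST, and 94.0, 100.8 and 106.4 CPM in SREBP2+EST. Vector, then Vector+EST, then both SREBP2 groups formed 3 steps with no overlap. SREBP2 without EST raised Map1lc3b 1.38-fold (0.46 ± 0.05, edgeR adjusted p = 4.4e-07), EST in Vector cells 1.15-fold (0.20 ± 0.05, edgeR adjusted p = 0.00183), and SREBP2 added to EST 1.16-fold (0.22 ± 0.05, edgeR adjusted p = 0.00459). SREBP2 alone exceeded EST alone by 0.26 ± 0.05 on the log2 scale (edgeR adjusted p = 0.00127). Its counts also carried decimals in all 12 libraries, and its exons overlap Zcchc14 on the other strand.

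Gabarapl1 (chr6:129533192-129542331, plus strand), a GABARAP family member, was 101.5, 106.0 and 104.8 CPM in Vector and 103.2, 107.0 and 108.4 CPM in Vector+EST. It was 112.2, 125.2 and 131.8 CPM in SREBP2 and 122.3, 124.2 and 121.7 CPM in SREBP2+EST. Libraries with SREBP2 all lay above those without, and the Vector and Vector+EST libraries overlapped. The log2 fold change was 0.03 ± 0.05 for EST in Vector cells (edgeR adjusted p = 0.624), 0.24 ± 0.05 for SREBP2 without EST (edgeR adjusted p = 0.000411) and 0.21 ± 0.05 for SREBP2 with EST (edgeR adjusted p = 0.0068). The interaction was -0.03 ± 0.07 (edgeR adjusted p = 0.712). Its exons overlap a transcript on the other strand, 1700101I11Rik.

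Gabarapl2 (GATE-16, chr8:111940703-111952915, plus strand) was 41.5, 39.3 and 39.2 CPM in Vector, 51.4, 56.2 and 52.0 CPM in SREBP2, 47.1, 48.8 and 50.7 CPM in Vector+EST, and 48.8, 54.9 and 56.2 CPM in SREBP2+EST. Vector was the lowest group without overlap, and SREBP2+EST library 1 lay within the range of Vector+EST. The rise was 1.22-fold with EST in Vector cells (0.29 ± 0.06, edgeR adjusted p = 0.000435) and 1.33-fold with SREBP2 without EST (0.41 ± 0.06, edgeR adjusted p = 1.14e-05). With EST in both arms, SREBP2 gave 0.13 ± 0.06 (edgeR adjusted p = 0.145), and 0.19 with an adjusted p of 0.0258 without SREBP2+EST library 1.

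Sqstm1 (p62, chr11:50200152-50210820, minus strand) links ubiquitinated cargo to ATG8 proteins. It was 167.9, 169.4 and 164.5 CPM in Vector, 153.8, 168.3 and 171.5 CPM in SREBP2, and 169.0, 171.3 and 175.7 CPM in SREBP2+EST. Vector+EST libraries 1, 3 and 5 had 137.1, 129.1 and 142.9 CPM. This was the lowest group, with no overlap with any other, whereas the other 3 groups overlapped. EST in Vector cells lowered Sqstm1 to 0.815-fold (-0.29 ± 0.05, edgeR adjusted p = 3.18e-05), and SREBP2 without EST gave -0.02 ± 0.05 (edgeR adjusted p = 0.658). SREBP2 added to EST raised it 1.26-fold (0.33 ± 0.05, edgeR adjusted p = 5.68e-05). The effect of EST differed between SREBP2 and Vector cells (interaction 0.36 ± 0.07, edgeR adjusted p = 0.000203). Its exons overlap Mrnip on the other strand, and the sources used here do not say whether counting used strand.

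Bnip3l (NIX, chr14:66985238-67008877, minus strand), the mitophagy receptor of maturing red cells, fell. It was 311.2, 312.7 and 322.3 CPM in Vector, 254.4, 252.3 and 261.0 CPM in SREBP2, 223.4, 228.4 and 231.5 CPM in Vector+EST, and 245.1, 243.1 and 246.6 CPM in SREBP2+EST. None of the 4 groups overlapped, and Vector+EST was the lowest, although SREBP2+EST and SREBP2 did not differ past the threshold (-0.06 ± 0.03, edgeR adjusted p = 0.919). EST in Vector cells lowered it to 0.722-fold (-0.47 ± 0.03, edgeR adjusted p = 2.23e-09) and SREBP2 without EST to 0.811-fold (-0.30 ± 0.03, edgeR adjusted p = 4.13e-07). SREBP2 alone was above EST alone by 0.17 ± 0.03 (edgeR adjusted p = 0.00134). The rise with SREBP2 added to EST, 0.10 ± 0.03 (edgeR adjusted p = 0.0316), was lost without Vector+EST library 1 (adjusted p = 0.126) or 3 (0.0797), or SREBP2+EST library 1 (0.0562), 2 (0.0615) or 5 (0.0848), and likewise with DESeq2 (0.0602), relative log expression (0.0713) or library totals (0.173) for scaling, and no low-count filter (0.0772).

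**Figure D2:**
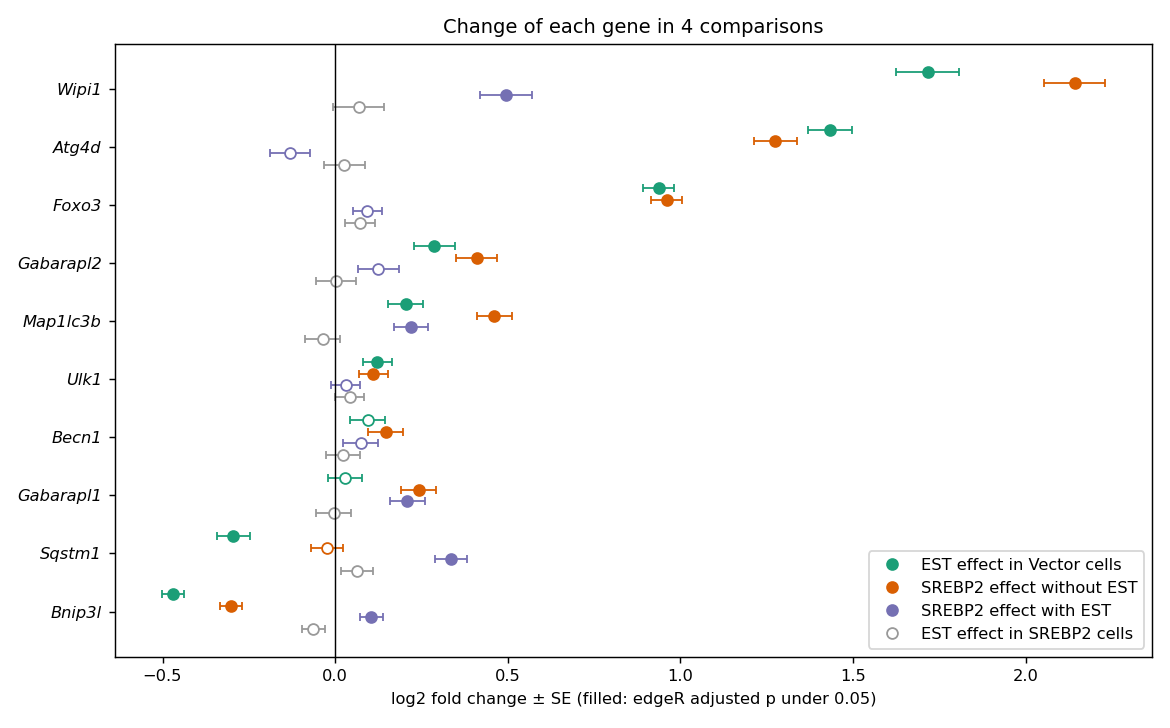
Log2 fold change (horizontal axis) of each gene in 4 comparisons, with bars for the SE; filled circles passed an edgeR adjusted p of 0.05 and open circles did not. Wipi1, Atg4d and Foxo3 lie farthest to the right for EST in Vector cells and for SREBP2 without EST, Bnip3l lies left of 0 for both, and all 10 grey circles, for EST in SREBP2 cells, are open.

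Over the 10 genes, EST in Vector cells raised 6 and lowered 2, where 35.2% of all genes tested rose and 35.5% fell (70.6% in either direction), and the median log2 fold change was 0.16 against 0.01 over all genes. SREBP2 without EST raised 8 and lowered 1, beside 37.7% and 33.8% of all genes (71.5% in either direction), with a median of 0.33 against 0.03. Most genes tested changed in both comparisons, so the count alone does not set these 10 apart. With EST present, SREBP2 raised 5, namely Bnip3l, Map1lc3b, Gabarapl1, Sqstm1 and Wipi1, and lowered none (Atg4d with library totals for scaling), beside 14.0% and 7.94% of all genes (21.9%), and 7 passed without SREBP2 library 1 and SREBP2+EST library 1, Gabarapl2 and Becn1 being added. SREBP2 alone exceeded EST alone in 5, again Bnip3l, Map1lc3b, Gabarapl1, Sqstm1 and Wipi1, and in none was it lower, beside 14.4% and 8.96% (23.4%). Without SREBP2 library 1 and SREBP2+EST library 1, Gabarapl2 was also higher (edgeR adjusted p = 0.0319) and Atg4d was lower (0.0216), as it was with relative log expression (0.0415) or library totals (0.0167) for scaling. Both treatments against neither raised 8 and lowered 1 (Bnip3l), beside 38.6% and 34.2% (72.7%). Without Vector library 4 the rises of Ulk1 (edgeR adjusted p = 0.0697) and Becn1 (0.0589) in that comparison were lost, as they were with library totals for scaling (0.0618 and 0.0594), and as was that of Becn1 without SREBP2+EST library 5 (0.0943). Sqstm1 did not pass with both treatments (0.04 ± 0.05, edgeR adjusted p = 0.449). The interaction passed for 7 of the 10, above 0 in Bnip3l and Sqstm1 and below 0 in Foxo3, Map1lc3b, Gabarapl2, Atg4d and Wipi1, beside 29.8% above and 29.2% below over all genes (59.0%). The Map1lc3b interaction of -0.24 ± 0.07 was not past the threshold without Vector library 5 (-0.18, edgeR adjusted p = 0.0575).

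EST in SREBP2 cells changed 0 of the 10 genes and 0 of all genes tested (0%) by edgeR, with 506 genes at an unadjusted p under 0.05, none of them among the 10. DESeq2 called 12 genes, none of the 10. Without SREBP2 library 1 and SREBP2+EST library 1, 1567 genes passed, still none of the 10, whose log2 fold changes then ran from -0.07 in Bnip3l to 0.19 in Wipi1.

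The rest of the pathway was described over 101 other genes of autophagy, its regulators and targets of FOXO factors, of which 90 passed the filter. EST in Vector cells raised 56 and lowered 16 of the 90, with a median log2 fold change of 0.30, and SREBP2 without EST raised 57 and lowered 18, with a median of 0.38. In either direction these are 80% and 83.3% of the 90, beside 70.6% and 71.5% of all genes tested, so the share called lies near the background, while 62.2% and 63.3% rose, beside 35.2% and 37.7% of all genes, and 17.8% and 20% fell, beside 35.5% and 33.8%. SREBP2 added to EST raised 21 and lowered 1 (24.4% called, beside 21.9% of all genes), with a median of 0.02. EST in SREBP2 cells changed none by edgeR or DESeq2, with 2 at an unadjusted p under 0.05, and 19 passed, 15 of them higher, without SREBP2 library 1 and SREBP2+EST library 1.

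Among FOXO factors, Foxo4 averaged 43.3 ± 0.995 CPM in Vector, 66.0 ± 1.35 in SREBP2, 58.1 ± 1.71 in Vector+EST and 65.7 ± 1.31 CPM with SREBP2+EST, and rose with EST in Vector cells, with SREBP2 without EST, and with SREBP2 added to EST (0.18, edgeR adjusted p = 0.0066). Foxo6 was at or below 3 counts in every library, and Foxo1 was not analysed here. Of 12 tested genes listed as FOXO targets, 8 rose and 4 fell with EST in Vector cells, and likewise with SREBP2 without EST (66.7% higher and 33.3% lower, beside 35.2% and 35.5% of all genes for EST and 37.7% and 33.8% for SREBP2). Among those averaging a log2 CPM of 3 or more, the largest rise was that of Ccng2, a cyclin linked to cell cycle exit, from 8.80 ± 0.263 CPM in Vector to 60.1 ± 7.91 in SREBP2 and 49.4 ± 0.3 in Vector+EST. Irs2, the insulin receptor substrate, fell from 175 ± 2.99 to 112 ± 11.8 and 103 ± 8.76 CPM. The antioxidant gene Cat was 218 ± 2.25 CPM in Vector, 438 ± 6.83 in SREBP2, 292 ± 6.44 in Vector+EST and 440 ± 8.71 CPM with SREBP2+EST. Of the 12, SREBP2 added to EST raised 7 and lowered none, beside 14.0% and 7.94% of all genes.

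In the ULK complex, SREBP2 without EST raised 4 of 5 genes, Ulk1 included, and lowered Atg101 (-0.18, edgeR adjusted p = 0.0355). EST in Vector cells raised 4 and lowered none. Over all genes, 71.5% and 70.6% were called in these comparisons. Rb1cc1 (FIP200), the scaffold of the complex, averaged 44.8 ± 1.87 CPM in Vector, 72.0 ± 8.8 in SREBP2 and 73.8 ± 2.98 in Vector+EST, and Atg13 averaged 40.8 ± 0.844, 57.4 ± 6.17 and 69.4 ± 3.21 CPM. In the lipid kinase list, Rubcn (Rubicon), a negative regulator of autophagosome maturation, had the largest rise, from 29.6 ± 2.25 to 99.4 ± 16.8 CPM in SREBP2 and 115 ± 4.18 CPM in Vector+EST, while the catalytic subunit Pik3c3 fell from 91.2 ± 3.05 to 69.2 ± 0.803 and 71.8 ± 0.634 CPM. Beside Wipi1, Wipi2 went from 68.2 ± 3 to 88.6 ± 3.86 and 96.7 ± 1.38 CPM.

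The ATG8 family has 5 genes in the table. SREBP2 without EST raised all 5, EST in Vector cells raised 4, all but Gabarapl1, and SREBP2 added to EST raised 4, all but Gabarapl2, where 37.7%, 35.2% and 14.0% of all genes rose. Map1lc3a (LC3A) had the largest rise, from 5.54 ± 0.552 CPM in Vector to 11.3 ± 0.708 in Vector+EST, 24.0 ± 1.01 in SREBP2 and 24.1 ± 1.2 CPM in SREBP2+EST. Gabarap was 175 ± 5.09, 208 ± 6.3, 255 ± 6.48 and 262 ± 17.1 CPM in that order of groups. Per kilobase of the longest annotated transcript, the level in Vector was 129 CPM for Gabarap, 57.2 for Gabarapl1, 23.9 for Gabarapl2, 18.1 for Map1lc3b and 4.98 for Map1lc3a, and this order was the same with the median transcript length (208, 144, 53.4, 29.5 and 6.71 CPM per kilobase). On the same per-length scale, Bnip3l (96.8), Sqstm1 (62.6) and Gabarapl1 (57.2) were the highest of the 10 genes in Vector, and Atg4d (4.17) and Wipi1 (3.08) the lowest. Of the ATG4 proteases, Atg4b went from 172 ± 1.46 CPM in Vector to 217 ± 7.61 in SREBP2 and 197 ± 2.88 in Vector+EST, a smaller change than that of Atg4d, while Atg4c was near 0 in every group. Atg7, the enzyme that activates ATG8 proteins, fell from 31.2 ± 1.04 to 24.7 ± 1.78 and 24.4 ± 1.21 CPM.

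**Figure D3:**
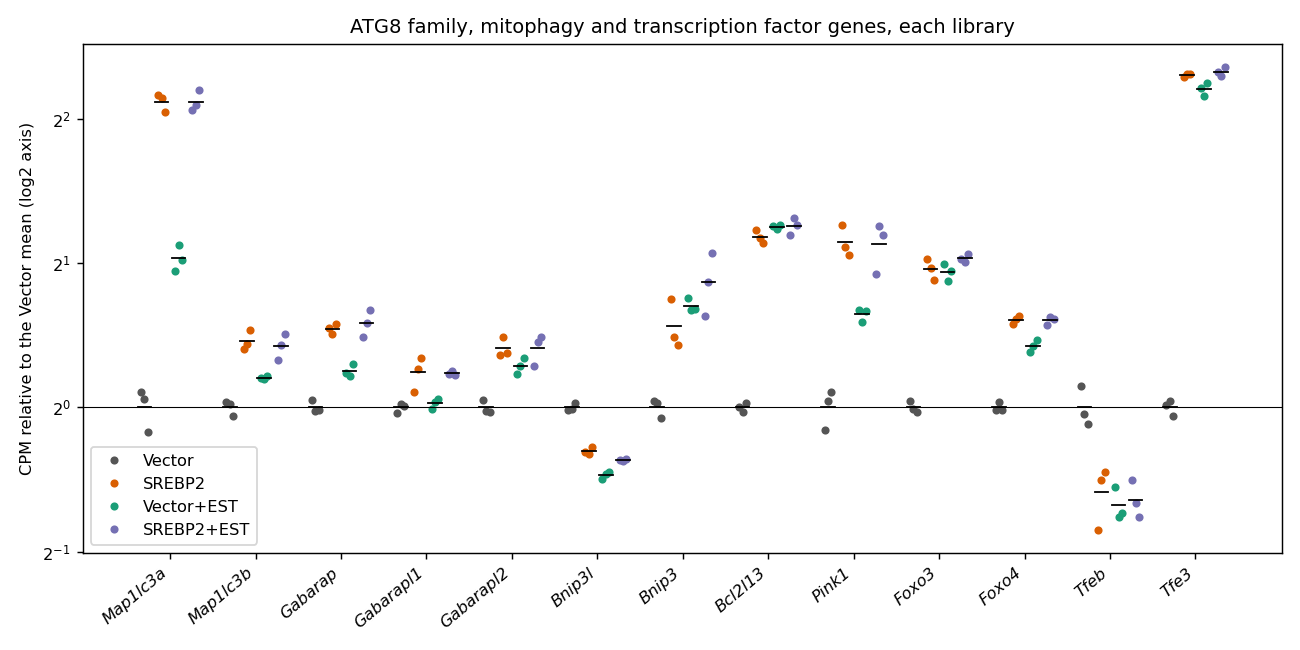
CPM in each library divided by the Vector mean of the gene (vertical axis, log2 spacing) for ATG8 family, mitophagy and transcription factor genes, with points for the 3 libraries of a group and black bars for their mean. Map1lc3a is higher in Vector+EST than in Vector and higher still in both SREBP2 groups, Bnip3l and Tfeb lie below 1, and Tfe3 and Bcl2l13 lie at like heights in the 3 groups other than Vector.

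Among cargo receptors, 6 of 9 rose and 1, Sqstm1, fell with EST in Vector cells, and SREBP2 without EST raised 7 and lowered none. Each is 77.8% called, near the 70.6% and 71.5% of all genes. Calcoco1, a receptor for the endoplasmic reticulum, went from 9.69 ± 0.464 CPM in Vector to 30.2 ± 2.77 in SREBP2 and 26.3 ± 2.07 in Vector+EST. Sqstm1 was thus the only receptor of the 9 that fell past the threshold with EST in Vector cells.

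Of 11 mitophagy genes, EST in Vector cells raised 5 and lowered 2 and SREBP2 without EST raised 4 and lowered 3, in all 63.6% of the list in each, beside 70.6% and 71.5% of all genes tested. Bnip3, the close relative of Bnip3l, moved the other way, from 10.6 ± 0.467 CPM in Vector to 15.6 ± 1.91 in SREBP2, 17.2 ± 0.553 in Vector+EST and 19.3 ± 2.86 CPM with SREBP2+EST. Bcl2l13, another outer membrane receptor, went from 171 ± 3.48 to 387 ± 12.5, 406 ± 4.15 and 408 ± 16.6 CPM. Phb2, an inner membrane receptor, fell from 566 ± 2.95 to 373 ± 30.9, 380 ± 10.4 and 359 ± 19.5 CPM. Pink1, the kinase that marks damaged mitochondria, was 17.0 ± 1.58, 37.5 ± 2.79, 26.5 ± 0.881 and 37.1 ± 4.34 CPM. With SREBP2 added to EST, Pink1 rose (0.49, edgeR adjusted p = 0.000562).

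At the fusion step, 11 of 14 genes rose and 2 fell in each of these comparisons, which is 78.6% and 14.3%, beside 35.2% and 35.5% of all genes for EST and 37.7% and 33.8% for SREBP2. Plekhm1, an adaptor between autophagosomes and lysosomes, went from 36.0 ± 1.43 CPM in Vector to 139 ± 4.85 in SREBP2 and 131 ± 6.9 in Vector+EST, and the fusion protein gene Vamp8 from 214 ± 9.01 down to 122 ± 19.5 and 106 ± 2.94 CPM. Of the transcription factors that drive lysosome genes, Tfe3 went from 68.1 ± 2.47 to 336 ± 3.22 and 314 ± 9.87 CPM, and Tfeb fell from 20.8 ± 1.97 to 13.8 ± 1.98 and 13 ± 1.05 CPM. In the list of mTORC1 and AMPK genes, 5 of 13 rose and 4 fell in each comparison. That is 69.2% called beside 70.6% and 71.5% of all genes, and so at the background. mTORC1 restrains autophagy and AMPK promotes it, but the list also holds inhibitors of mTORC1, so its counts give no direction for autophagy. The AMPK subunit Prkab1 went from 255 ± 2.92 to 562 ± 18.1 and 591 ± 15.8 CPM. Akt1s1, an inhibitory subunit of mTORC1, went from 141 ± 3.21 to 81.0 ± 7.06 and 80.2 ± 5.61 CPM.

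**Figure D4:**
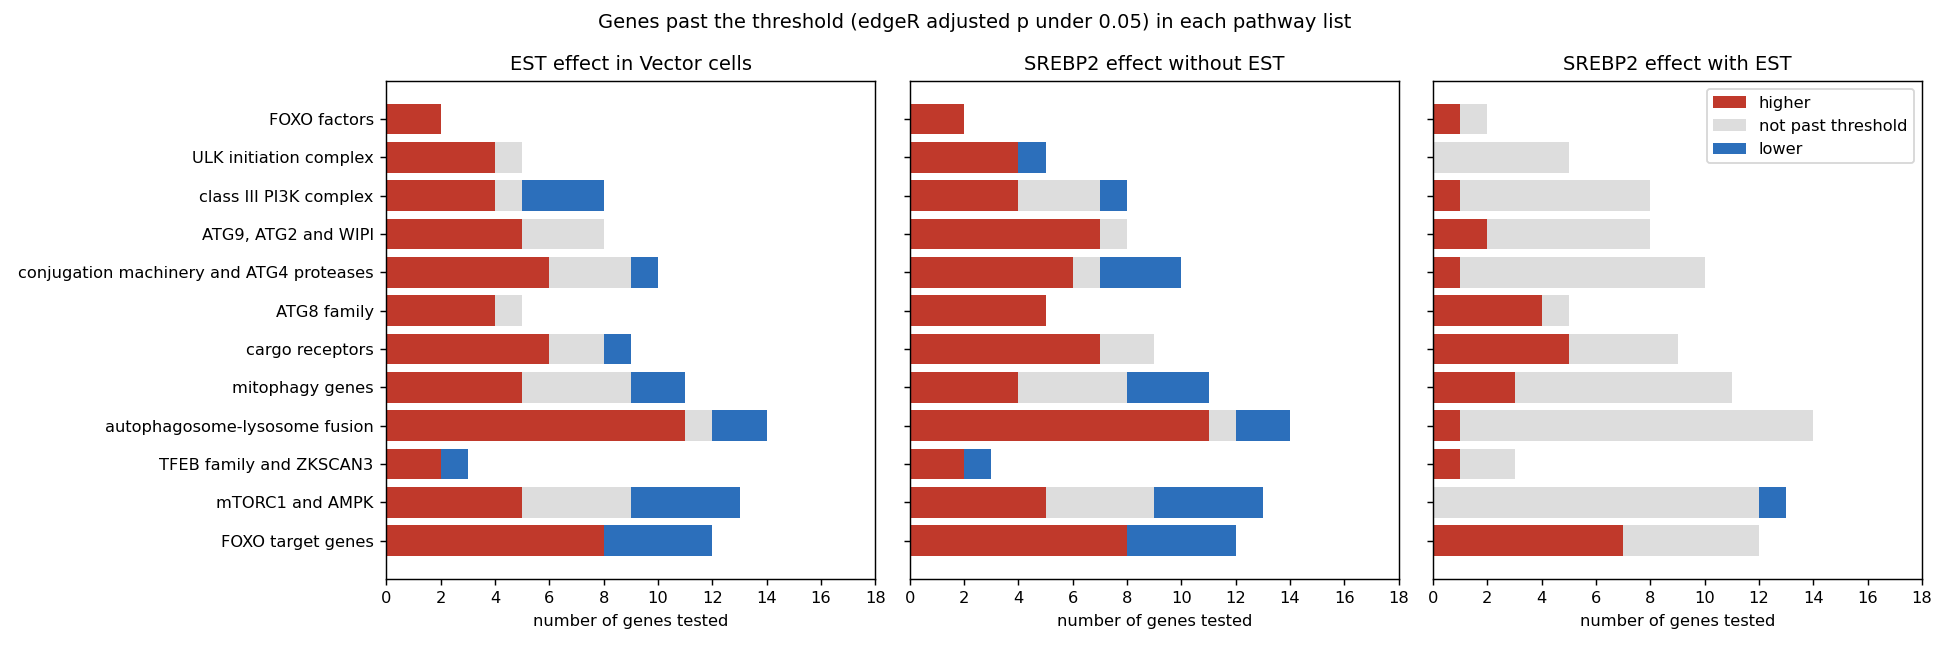
Number of genes tested in each list (horizontal axis) that were higher, lower or not past the threshold in 3 comparisons, with the 10 genes included in the lists they belong to. In the fusion list, 11 of 14 genes are higher for EST in Vector cells and for SREBP2 without EST, against 1 of 14 for SREBP2 with EST, where 4 of 5 ATG8 genes are higher.

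The genes whose pattern over the 12 libraries was most like that of Foxo3, by the root mean square difference of log2 CPM centred on each gene's own mean among 8553 genes, were Lmtk2 (0.043), Nckap1 (0.049), Chfr (0.049), Sec14l1 (0.051) and Gid8 (0.051). Lmtk2 averaged 34.0, 65.0, 67.6 and 70.0 CPM and Gid8 228, 452, 450 and 471 CPM in Vector, SREBP2, Vector+EST and SREBP2+EST. The nearest of the other 9 genes was Atg4d at rank 903, with a difference of 0.19.

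**Figure D5:**
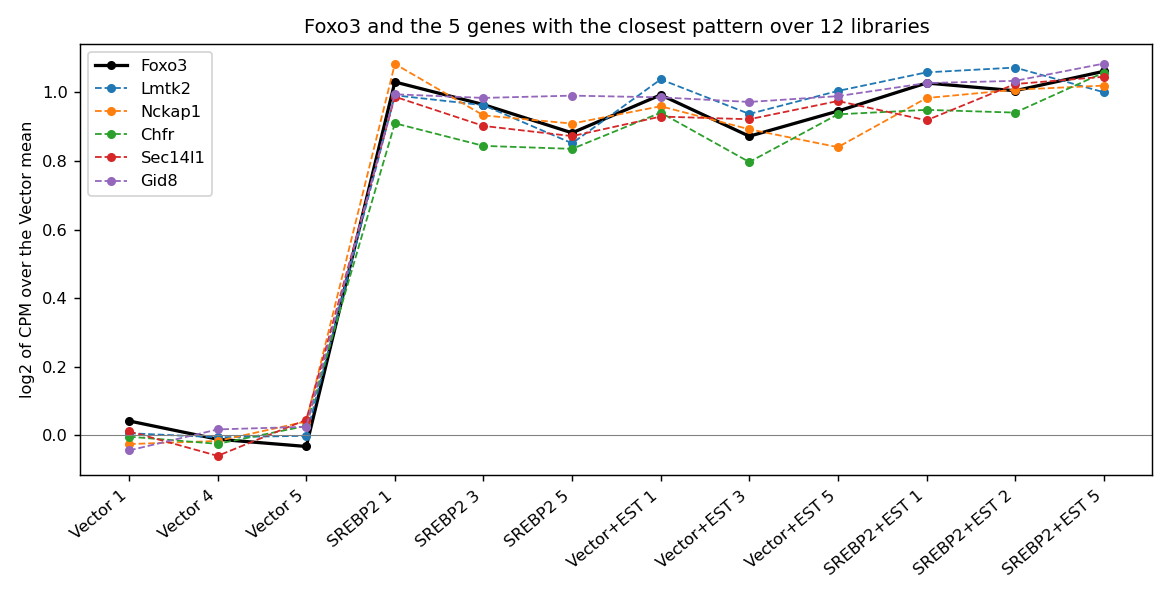
Log2 of CPM over the Vector mean (vertical axis) in each of the 12 libraries (horizontal axis) for Foxo3, in black, and for the 5 genes with the closest pattern. All 6 genes step up between the Vector libraries and the other 9, as Foxo3 does from 129.5 to 136.3 CPM in Vector to 242.4 CPM or more elsewhere.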

How the data were processed

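mRNA from 12 libraries was isolated with oligo(dT), copied from random hexamers and sequenced as single reads of 50 bases on a BGISEQ-500. The authors deposited unnormalized estimated counts for 17210 genes, and 66.5% of the values are whole numbers (tolerance 1e-09). The submitters' processing notes name HISAT2 2.0.4, Bowtie2 2.2.5, RSEM 1.2.12, DESeq2 1.4.5 and GRCm38.p6, with no role for each. A second deposited table holds the authors' own pairwise comparisons per transcript (fold changes and p-values) and was not used.

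Counts were rounded. Genes were filtered with filterByExpr (11177 kept, 6033 left out) and scaled with TMM (trimmed mean of M values). They were tested with the quasi-likelihood F-test of edgeR 4.0.16 in R 4.3.3, with all 12 libraries and a mean per group. All groups shared the estimate of a gene's spread, although the coefficient of variation between libraries differed. It was 2.14% in Vector, 3.28% in Vector+EST, 5.25% in SREBP2+EST and 6.71% in SREBP2. Benjamini-Hochberg adjustment covered all genes tested, with a threshold of 0.05. Dividing the log2 fold change by the root of F gave its SE. Fold changes come from this fit and levels are CPM after TMM. A level of 3 counts was 0.153 to 0.163 CPM. The procedure was run on simulated data in which few genes changed, and only with EST. Most genes tested were called here in several comparisons, so that run does not measure the accuracy of these calls.

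The 10 genes and the gene lists were chosen with earlier results of these data known. The text names all 10, the genes Srebf2, Gata2 and Hmgcs1 as checks, the genes with the largest rise or fall past the threshold in each list where log2 CPM averaged 3 or more, members of the FOXO, ULK, ATG8, ATG4, BNIP3 and PINK1 lists, and the 5 genes nearest to Foxo3; Cat, Wipi2, Col1a1, Gfap and Pdgfrb were chosen after their values were seen. Groups came from the sample titles, and the count table's header numbers differ from the replicate numbers there. Coordinates and promoters are RefSeq, GRCm38.p6, and lengths are GENCODE M21. Alternatives were DESeq2 1.42.0, relative log expression or library totals for scaling, a minimum of 10 counts per library or no minimum, a fit of just the groups compared, each library left out, SREBP2 library 1 and SREBP2+EST library 1 left out together, and a replicate block on the header numbers. A gene of the mitophagy list is not reported here.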

Additional observations from a re-analysis of the deposited data

Results flagged for a closer look

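The effect of EST differed between SREBP2 cells and Vector cells, by the interaction term of the edgeR fit with 3 libraries a group, in 7 of the 10 genes. The interaction is the log2 fold change of EST in SREBP2 cells minus that in Vector cells. It was -1.65 for Wipi1 (edgeR adjusted p = 7.15e-09), -1.41 for Atg4d (1.11e-09), -0.87 for Foxo3 (7.36e-09), -0.29 for Gabarapl2 (0.00782) and -0.24 for Map1lc3b (0.00791), 5 genes that EST raised in Vector cells. It was 0.41 for Bnip3l (1.59e-06) and 0.36 for Sqstm1 (0.000203), the pair that EST lowered in Vector cells. The interaction passed in 59.0% of all genes tested. That of Map1lc3b was lost without Vector library 5 (-0.18, edgeR adjusted p = 0.0575). That of Gabarapl2 was lost with the replicate block on the header numbers (-0.26, edgeR adjusted p = 0.0823).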

How the results depend on the processing

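Over 20 other settings, 1326 of 1390 values of single genes kept their side of the threshold, 51 no longer passed and 13 newly passed. Of the values, 36 changed sign, 0 of them past the threshold in either fit. The header numbers of the count table did not pair the libraries (13 pairs with the same number, correlations of deviations from -0.465 to 0.376, 4 of them over 0.1). With the replicate block on these numbers, 2 of the 10 genes (Sqstm1 and Wipi1) passed for SREBP2 with EST in place of 5, and 8 of the other 90 genes in place of 22. Calls not kept with the block were those of Ulk1 for EST in Vector cells (adjusted p = 0.104), SREBP2 without EST (0.134) and both against neither (0.0588), of Bnip3l (0.195), Map1lc3b (0.0812) and Gabarapl1 (0.0557) for SREBP2 with EST, and of the Gabarapl2 interaction (-0.26, 0.0823). For SREBP2 alone against EST alone the block left 14 of the 90 in place of 22; it moved no other count of either set by over 1.5 times. Without SREBP2 library 1 and SREBP2+EST library 1, 19 of the 90 passed for EST in SREBP2 cells in place of 0, and 38 for SREBP2 alone against EST alone. Leaving out each library in turn gave 14 to 28 of the 90 for that comparison, with 14 without SREBP2 library 5 or Vector+EST library 3. Of the 10 genes it gave 7 to 8 for EST in Vector cells, 7 to 9 for SREBP2 without EST, 4 to 5 for SREBP2 with EST, 0 for EST in SREBP2 cells, 5 to 6 for SREBP2 alone against EST alone, 7 to 9 for both against neither and 6 to 7 for the interaction. The cause was not tested. With 3 libraries a group, changes of the size seen for Ulk1 and Becn1 lay at the limit of what passed.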
